A study of Mus musculus with 8 samples.

Results

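Mouse embryonic fibroblasts, mesenchymal cells grown out of embryos, were compared after mock transfection with and without the kinase gene Tbk1. Of the 8 arrays of the study, 4 carried mock-transfected cells. The 2 arrays without Tbk1 held Tbk1-/- Ikbke+/+ cells (called Tbk1-/- here) and Tbk1-/- Ikbke-/- cells (the double mutant). The 2 arrays with Tbk1 held Tbk1+/+ Ikbke+/+ cells (WT) and Tbk1+/+ Ikbke-/- cells (Ikbke-/-). All cells came from a cross of C57BL/6 and 129Ola mice, and their total RNA was taken 4 h after the mock transfection. The other 4 arrays held the same genotypes 4 h after transfection with B-DNA, a synthetic double-stranded DNA of A and T, and are used below to see which differences appear again. Each genotype was measured on 1 array per treatment, so each side of the comparison holds 2 arrays of different Ikbke genotype and no replicates of one genotype. The sources used here do not give the number of embryos or cultures behind an array.

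Tbk1 is a serine/threonine kinase that is switched on downstream of receptors for foreign nucleic acids. It phosphorylates the transcription factor Irf3, which then enters the nucleus and turns on the interferon beta gene and a first wave of antiviral genes. Ikbke encodes a related kinase. Secreted interferon acts through its receptor and the Jak kinases to induce interferon-stimulated genes, and low tonic interferon signalling keeps part of this programme on in unstimulated fibroblasts. Tbk1 also phosphorylates autophagy receptors.

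Values are array signals scaled so that the trimmed mean of each array is 500. Signals under 122, the 40th percentile of all scaled values, were set to that floor for differences and are printed as measured. A gene is called separated where both arrays without Tbk1 lay above both arrays with Tbk1, or both lay below, and the lower value of the higher pair was at least 244, which is 2 times the floor. The gap is the ratio of the nearest values of the pairs, and it is a lower bound where the lower pair lay under the floor. A level difference on the log2 scale is the mean of both arrays without Tbk1 minus the mean of both arrays with Tbk1.

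The double mutant array stood apart before any comparison. Its deposited signals had a trimmed mean of 139.8, against 236.7 to 255.0 on the other mock arrays, and it needed a scaling factor of 3.58, against 1.96 to 2.11. The summed level of 33 immediate early genes, which respond to serum and stress within minutes, was 21090 in the double mutant, against 63790 to 95530 on the other mock arrays. The WT array stood apart in another way. Of 21 macrophage and leukocyte markers tested, 17 read 244 or more in WT cells, against 2 in Tbk1-/-, 3 in the double mutant and 1 in Ikbke-/- cells. Their summed level was 1929 in Tbk1-/- and 1995 in the double mutant, against 23010 in WT and 1805 in Ikbke-/- cells. The complement genes C1qa, C1qb and C1qc lay under the floor on the other 3 mock arrays and between 841 and 1191 in WT. Of 13 fibroblast markers tested, 10 read 244 or more in Tbk1-/- and 13 in the double mutant, against 12 in WT and 12 in Ikbke-/- cells. Among them Col1a1, Col1a2, Vim and Fn1 read 20852 or more on all 4 arrays. Prrx1, a transcription factor of limb and head mesenchyme, was among the low ones in Tbk1-/-. It read 101 in Tbk1-/- and 3762 in the double mutant, against 2821 in WT and 1701 in Ikbke-/- cells. Xist read 2950 in Tbk1-/- and 209 in the double mutant, against 3002 in WT and 138 in Ikbke-/- cells, so embryo sex went with the Ikbke genotype and was balanced over the Tbk1 comparison. The 3'/5' signal ratio of Gapdh lay between 0.818 and 0.916, and that of Actb was 1.32 and 1.18 without Tbk1 and 0.953 and 0.998 with Tbk1. The part of array quality, other cells and embryo differences in what follows was not tested.

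Of 9169 genes that reached the floor on a mock array, 870 (9.49%) were separated with higher signal without Tbk1 and 827 (9.02%) with lower signal. A gap of 2-fold or more was rarer and leaned downward. It was found for 10 genes (0.109%) with higher signal and for 43 genes (0.469%) with lower signal without Tbk1. Of these 53 genes, 21 were above the floor on all 4 arrays. No gene passed a test: limma with terms for Tbk1 and Ikbke called 0% of the 9169 genes at an adjusted p under 0.05, the lowest adjusted p was 0.93, and 208 genes had an unadjusted p under 0.05 (85 higher, 123 lower). That fit had 1 residual degree of freedom, and an exact permutation of 2 arrays against 2 cannot give a 2-sided p under 0.33. The values below are therefore descriptions of 4 arrays. On the deposited signals without further scaling, 11% of the separated genes were on the higher side, against 51.3% after scaling, and the median difference of all genes was -0.23, against 0.04.

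The difference could be read separately in each Ikbke genotype, from pairs that share no array. Tbk1-/- and WT cells differed 2-fold or more in 536 genes. The double mutant and Ikbke-/- cells differed 2-fold or more in 1415 genes. In both pairs 84 genes differed that far in the same direction and 133 in opposite directions. Across the 9169 genes the differences of the pairs had a Pearson correlation of -0.147, and genes are not independent replicates. The separated genes are those in which the arrays without Tbk1 lay on the same side in both pairs.

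**Figure D1:**
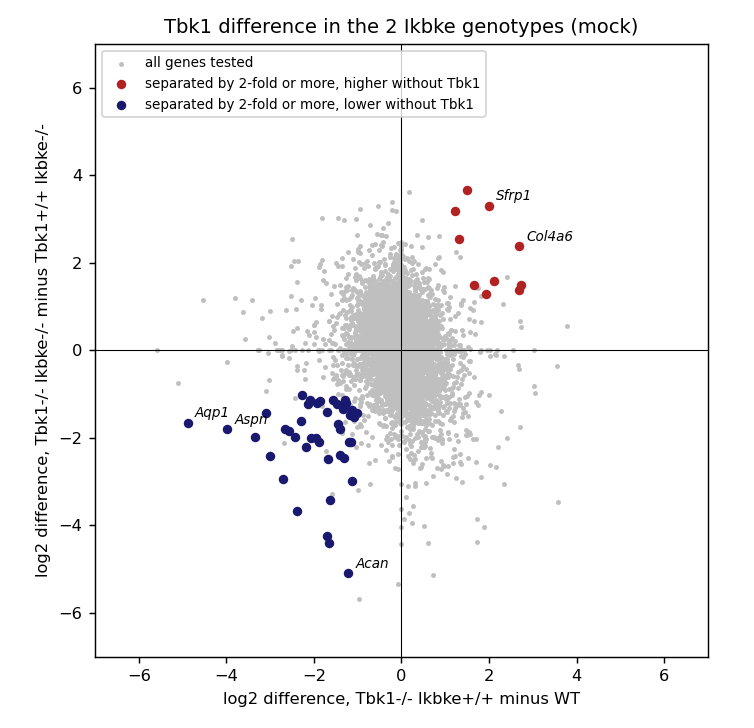
Each grey point is 1 of 9169 genes, with the log2 difference of Tbk1-/- minus WT cells on the horizontal axis and of double mutant minus Ikbke-/- cells on the vertical axis, both after mock transfection. The cloud is wider vertically, and the genes separated by 2-fold or more (10 in red, 43 in blue) lie in the upper right and lower left corners by construction.

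Tbk1 itself was read first as a check of the labels. Its probe set gave 226.1 in Tbk1-/- and 290.0 in double mutant cells, against 501.0 in WT and 472.1 in Ikbke-/- cells. Both mutant values lay below both others with a gap of 1.63-fold, so signal remained in cells labelled as lacking the gene. The sources used here give neither the exon that the deletion removes nor the position of the probes. A second Tbk1 probe set stayed under the floor on all 4 mock arrays. Ikbke read 13.3 to 27.9 on the mock arrays, under the floor, so its genotype could not be checked by its signal.

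The widest gaps on the higher side without Tbk1 were those of a basement membrane collagen and a Wnt antagonist. Col4a6, an alpha chain of collagen IV, read 789 in Tbk1-/- and 637 in double mutant cells, against 94.0 in WT and 88.3 in Ikbke-/- cells. It was at or above 600 on both arrays without Tbk1 and under the floor on both arrays with it, a gap of at least 5.21-fold. A second Col4a6 probe set read 295 and 195 without Tbk1 and under 20 with it, too low on 1 array to count as separated. Sfrp1, a secreted protein that binds Wnt ligands, read 2572 in Tbk1-/- and 2602 in the double mutant, against 641 in WT and 263 in Ikbke-/- cells. The arrays without Tbk1 were nearly equal, the gap was 4.01-fold, and 3 further Sfrp1 probe sets were separated the same way. The level difference of Sfrp1 was 2.65 on the log2 scale (SE 0.44, adjusted p = 0.93 in limma).

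The other 8 genes of this set had gaps between 2.33-fold and 2.80-fold. Plac8, a cysteine-rich protein first found in placenta, read 343 in Tbk1-/- and 1546 in the double mutant and lay under the floor on both arrays with Tbk1. Ppbp, a chemokine precursor best known from platelets, read 1034 in Tbk1-/- and 423 in the double mutant, against 155 in WT and 151 in Ikbke-/- cells. Tfpi, an inhibitor of tissue factor that limits clotting, read 758 in Tbk1-/- and 1236 in the double mutant, against 306 in WT and 213 in Ikbke-/- cells. Its 2 other probe sets were separated the same way. Vegfd, a growth factor for lymphatic vessels, read 1282 in Tbk1-/- and 3406 in the double mutant, against 550 in WT and 373 in Ikbke-/- cells. Within the pairs without Tbk1, Plac8 and Vegfd were more than 2-fold higher in the double mutant and Ppbp more than 2-fold higher in Tbk1-/-. The remaining 4 were Celf2, an RNA-binding splicing regulator, Timmdc1, an assembly factor of respiratory complex I, Cklf, a chemokine-like factor, and Mtm1, a phosphoinositide phosphatase. With the mean of all its probe sets Cklf was not separated, and its difference was 0.39, against 1.60. The last gene inside the 2-fold limit was Mtm1 with a log2 gap of 1.22, and the first outside was Amot, an angiostatin-binding protein, with 0.96.

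**Figure D2:**
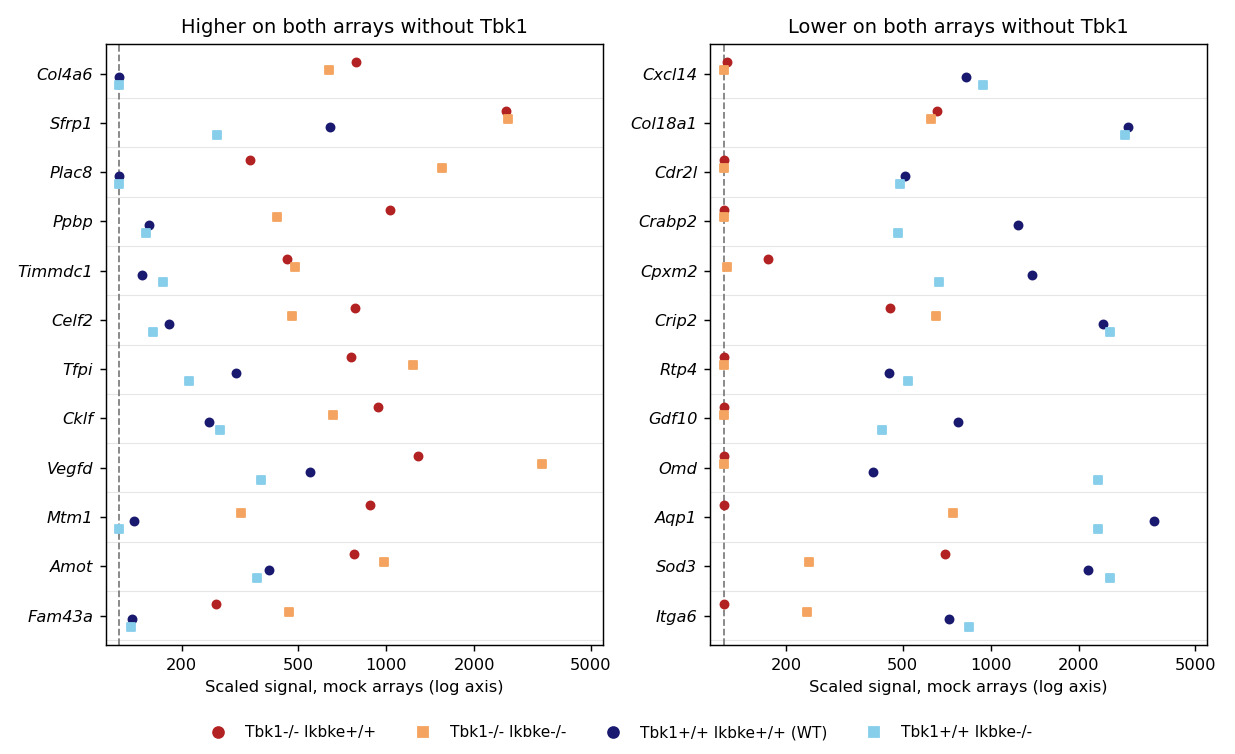
Scaled signals of the 12 genes with the widest gap in each direction are plotted on a log axis, 1 point per mock array, with values under the floor drawn at the floor (dashed line). In every row the red and orange points (without Tbk1) lie on one side of the dark and light blue points (with Tbk1), and Col4a6 and Cxcl14 have the widest gaps.

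Among the genes with lower signal without Tbk1, Cxcl14 had the widest gap. Cxcl14, a chemokine made by fibroblasts and epithelia, read 125.5 in Tbk1-/- and 115.1 in the double mutant, against 824.6 in WT and 942.4 in Ikbke-/- cells. Both arrays without Tbk1 were at the floor and the gap was 6.57-fold, and a second probe set was separated the same way. Col18a1, a basement membrane collagen whose end fragment is endostatin, read 655 in Tbk1-/- and 627 in the double mutant, against 2953 in WT and 2879 in Ikbke-/- cells. All 4 arrays measured it well above the floor, values within each side differed little, and the gap was 4.39-fold (limma difference -2.19, SE 0.34, adjusted p = 0.93). Crip2, a LIM-domain protein, behaved alike in the numbers, with 452 in Tbk1-/- and 649 in the double mutant, against 2428 in WT and 2557 in Ikbke-/- cells.

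Several other genes on this side were at or near the floor on 1 or both arrays without Tbk1. Crabp2, which carries retinoic acid to its nuclear receptor, read 109 in Tbk1-/- and 20.4 in the double mutant, against 1236 in WT and 482 in Ikbke-/- cells. Gdf10, a bone morphogenetic protein family ligand, lay under the floor on both arrays without Tbk1, against 774 in WT and 424 in Ikbke-/- cells. Omd, a small leucine-rich proteoglycan of bone, was likewise under the floor without Tbk1 and read 396 in WT and 2319 in Ikbke-/- cells. These 3 gaps are lower bounds of 3.95-fold, 3.47-fold and 3.25-fold. Aqp1, a water channel, read 120 in Tbk1-/- and 744 in the double mutant, against 3612 in WT and 2336 in Ikbke-/- cells, a gap of 3.14-fold with a wide spread between the mutants. Sod3, the extracellular superoxide dismutase, read 700 in Tbk1-/- and 240 in the double mutant, against 2157 in WT and 2567 in Ikbke-/- cells. Itga6, a laminin receptor subunit, read 74.9 in Tbk1-/- and 235 in the double mutant, against 721 in WT and 844 in Ikbke-/- cells, and its other probe set was separated the same way. Cdr2l, a gene related to a cerebellar antigen, and Cpxm2, a carboxypeptidase-like secreted protein, had gaps of at least 4.03-fold and of 3.86-fold, but a second Cpxm2 probe set read 268 in WT and 104 in Ikbke-/- cells and was not separated. The limit of 2-fold fell between Igfbp3 (log2 gap 1.02) and Efemp1 (0.97), a binding protein of insulin-like growth factors and a fibulin.

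The other genes with a 2-fold gap on the lower side had gaps between 2.03-fold and 3.03-fold. Srpx, a secreted sushi-domain protein, read 122 in Tbk1-/- and 210 in the double mutant, against 637 in WT and 2667 in Ikbke-/- cells. S1pr3, a receptor for sphingosine 1-phosphate, read 373 in Tbk1-/- and 263 in the double mutant, against 1436 in WT and 1061 in Ikbke-/- cells. Lgals3, a galectin that macrophages make in quantity, read 1249 in Tbk1-/- and 117 in the double mutant, against 3956 in WT and 2567 in Ikbke-/- cells. The mutants were far apart for Lgals3, and the part of the macrophage markers of the WT array in it was not tested. Gpc1, a cell surface heparan sulfate proteoglycan, read 578 in Tbk1-/- and 563 in the double mutant, against 1173 in WT and 1511 in Ikbke-/- cells. Slc24a3, a sodium, calcium and potassium exchanger, read 244 in Tbk1-/- and 280.4 in the double mutant, against 725 in WT and 617 in Ikbke-/- cells. S1pr3, Gpc1 and Slc24a3 were above the floor on all 4 mock arrays. Flt1, Itgbl1, Ptprd, Pcolce2, Ctsk and Socs2 had at least 1 array without Tbk1 under the floor. Both were under it for Rps4l, Moxd1, Homer2, Olfm1, Kcnn4, Dhrs3, Tmem267 and Srpx2, whose gaps are lower bounds.

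The listed collagens, the main structural proteins of the matrix, leaned to the lower side. The list leaves out Col4a6, which had a gap of at least 5.21-fold on the higher side. Of 23 collagen genes tested, 8 (34.8%) were separated with lower signal and 1 with higher signal, against 9.02% and 9.49% of all genes, and their median difference was -0.58. It was -0.53 between Tbk1-/- and WT and -0.19 between the double mutant and Ikbke-/- cells. Leaving out an array loosens the rule for all genes. Without the Tbk1-/- array the median was -0.26, with 10 lower (43.5%) and 5 higher (21.7%), against 25.0% and 35.0% of all genes. Without the WT array the median was -0.33, with 12 lower (52.2%) and 5 higher (21.7%), against 19.8% and 19.6%. With the mean of all probe sets 5 were lower (21.7%) and 2 higher (8.7%), against 8.38% and 8.12%. The 3 genes of the list with gaps of 2-fold or more were Col18a1, Col12a1 and Col14a1. Col12a1, which lies on the surface of fibrils, read 1482 in Tbk1-/- and 1525 in the double mutant, against 4803 in WT and 4045 in Ikbke-/- cells. Col14a1, a relative of Col12a1, read 247 in Tbk1-/- and 246 in the double mutant, against 564 in WT and 1056 in Ikbke-/- cells, and its second probe set was not separated because WT read 202. Col6a3 followed with a gap of 1.43-fold, and Col16a1, Col11a1, Col4a1 and Col6a2 with gaps of 1.12-fold or less. The single higher gene of the list was Col4a5, the partner chain of Col4a6. Col4a5 read 1837 in Tbk1-/- and 1588 in the double mutant, against 989 in WT and 447 in Ikbke-/- cells. The abundant fibril collagens Col1a1, Col1a2 and Col3a1 were not separated.

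Other matrix proteins and enzymes were counted in the same way. Of 51 tested, 12 (23.5%) were lower and 3 (5.88%) were higher without Tbk1, against 9.02% and 9.49% of all genes. Their median difference was -0.19. Aspn, a proteoglycan that binds collagen, read 186 in Tbk1-/- and 1440 in the double mutant, against 2941 in WT and 5018 in Ikbke-/- cells. Thbs2, a matricellular protein, read 503 in Tbk1-/- and 1258 in the double mutant, against 4275 in WT and 2403 in Ikbke-/- cells, a gap of 1.91-fold. Postn, a secreted protein of collagen-rich tissue, and Fmod, a proteoglycan of tendon, had gaps of 1.49-fold and 1.57-fold. The 3 higher genes were Nid1 and Lamb1, both basement membrane proteins, and Fbln2, with gaps of 1.30-fold, 1.18-fold and 1.04-fold. Among 16 listed cartilage and bone genes 1 was separated. That list leaves out Omd, the bone proteoglycan described above, which was separated with lower signal. The separated member was Acan, the large proteoglycan of cartilage. Acan read 434 in Tbk1-/- and 136 in the double mutant, against 1010 in WT and 4651 in Ikbke-/- cells. The Ikbke-/- array also held the highest signal of the cartilage collagens Col2a1 (23460, against 1111 to 4891 on the other 3) and Col9a1 (4957, against at most 129), which were not separated by Tbk1.

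Signalling genes of the Wnt, Tgfb, Bmp and Igf pathways gave 7 lower (14.6%) and 2 higher (4.17%) of 48 tested, against 9.02% and 9.49% of all genes. Dkk3, a secreted member of the Dickkopf family, read 1406 in Tbk1-/- and 1390 in the double mutant, against 3916 in WT and 3229 in Ikbke-/- cells. Igf2, an imprinted growth factor, read 770 in Tbk1-/- and 3570 in the double mutant, against 6231 in WT and 5745 in Ikbke-/- cells, a gap of 1.61-fold. The inhibitors of helix-loop-helix factors Id1, Id2 and Id3, which answer to Bmp, were all on the lower side, with gaps of 1.12-fold, 2.66-fold and 1.23-fold. Of 34 mesenchymal patterning factors, 4 (11.8%) were lower, close to the 9.02% of all genes, and 1 (2.94%), Gata6, was higher, against 9.49%. Msx1 was the only one of them past 2-fold. A second Msx1 probe set read 271 in WT and 167 in Ikbke-/- cells and was not separated.

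Resting interferon-stimulated genes were the group that the known role of Tbk1 singles out. Of 65 listed, 40 were tested, 12 were under the floor on all 4 mock arrays and 13 had no probe set with a single symbol and were not analysed here, among them Isg15 and Ifi27. Of the 40, 9 (22.5%) were separated with lower signal and 2 (5.00%) with higher signal without Tbk1, against 9.02% and 9.49% of all genes. The median difference was -0.29, made up of -0.51 between Tbk1-/- and WT and 0.00 between the double mutant and Ikbke-/- cells. Signals of 244 or more were read for 13 of the 40 in Tbk1-/- and 17 in the double mutant, against 23 in WT and 21 in Ikbke-/- cells. Many members lay near the floor, where differences cannot be resolved.

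Rtp4 and Ifit1 were the 2 genes of this list with a gap of 2-fold or more. Cxcl10, also induced by interferon, was counted with the chemokines below and had a gap of 2.43-fold. Rtp4, a chaperone of G protein-coupled receptors that also binds viral RNA, read 31.6 in Tbk1-/- and 23.6 in the double mutant, against 450 in WT and 522 in Ikbke-/- cells, a gap of at least 3.68-fold. Ifit1, which binds viral RNA that lacks a host-type cap, read 65.1 in Tbk1-/- and 149 in the double mutant, against 600 in WT and 454 in Ikbke-/- cells, a gap of 3.04-fold. Both genes were clearly measured with Tbk1 and at or near the floor without it. The other Rtp4 probe set did not reach the floor in any mock sample, and with the mean of all probe sets the Rtp4 difference was -0.99, against -1.99, and Rtp4 was no longer separated. Neither gene passed the test across all genes.

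The other 7 had narrow gaps. Lgals3bp, a secreted glycoprotein, read 542 in Tbk1-/- and 478 in the double mutant, against 813 in WT and 1042 in Ikbke-/- cells, a gap of 1.5-fold. Irf9, the DNA-binding subunit of the interferon-activated complex, read 171 in Tbk1-/- and 221 in the double mutant, against 293 in WT and 335 in Ikbke-/- cells, a gap of 1.33-fold. Trim25 and Trim21, ubiquitin ligases of antiviral defence, had gaps of 1.27-fold and 1.26-fold. Ifit3, a partner of Ifit1, read 65.5 in Tbk1-/- and 235 in the double mutant, against 315 in WT and 288 in Ikbke-/- cells, so that the double mutant nearly reached the arrays with Tbk1. Slfn2 and Tor3a had gaps of 1.12-fold each. The 2 on the higher side were Irgm1, an interferon-induced GTPase, with a gap of 1.21-fold and the exonuclease gene Isg20 with 1.02-fold.

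Several familiar members missed the rule. Usp18, which damps interferon receptor signalling, read 83.5 in Tbk1-/- and 74.0 in the double mutant, against 240 in WT and 178 in Ikbke-/- cells, so both pairs kept order but the signal was too low to count. Stat2, a partner of Irf9, read 131 in Tbk1-/- and 209 in the double mutant, against 225 in WT and 238 in Ikbke-/- cells, again in order and too low. Rsad2, also called viperin, read 157 and 158 without Tbk1, against 400 in WT and 123 in Ikbke-/- cells, and Gbp2, Ifih1 and Oas1a were likewise highest in WT, with Ikbke-/- cells below Tbk1-/- cells. Irf7, Bst2, Irf1, Irf3 and Sting1 were not separated, and Ifnb1, Mx1 and Oasl2 lay under the floor on all 4 mock arrays. Macrophage markers were high in WT cells alone, and macrophages also express interferon-stimulated genes. Without the WT array, 12 of the 40 (30%) were lower and 3 higher, against 19.8% and 19.6% of all genes under that looser rule, and the median difference was -0.16. Without the Tbk1-/- array, 12 (30%) were lower and 11 (27.5%) higher, against 25% and 35% of all genes. The part of the macrophage markers was not tested.

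**Figure D3:**
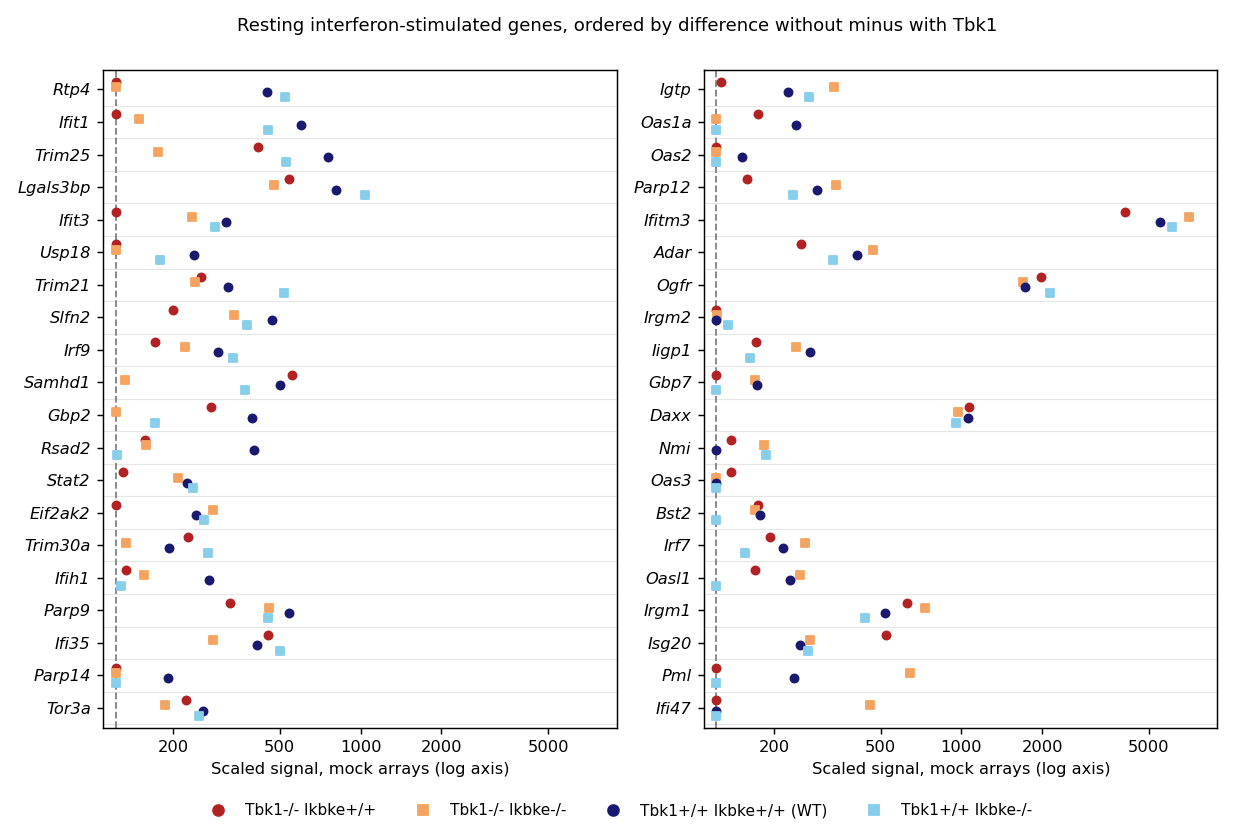
Scaled signals of the 40 tested interferon-stimulated genes on the 4 mock arrays (log axis, values under the floor drawn at the dashed line) are ordered by the difference without minus with Tbk1, lowest first in the left panel. Rtp4 and Ifit1 stand apart at the top of the left panel, while in most rows the colours mix and many points lie at the floor.

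The promoters of interferon-stimulated genes separated with lower signal were searched for the sequence through which interferon-activated factors act. Of these, only windows that held a match are printed. The core of the interferon response element, GAAANNGAA on one strand or TTCNNTTTC on the other, was searched from 250 bases before to 50 after the RefSeq start of each gene (GRCm38.p6). Capitals mark matches, which can overlap each other. The Ifit1 window is chr19:34640639-34640938 on the plus strand, the Ifit3 window chr19:34583279-34583578 on the plus strand, the Trim21 window chr7:102565433-102565732 on the minus strand and the Trim25 window chr11:88999153-88999452 on the plus strand. The window of Cxcl10, a chemokine gene described below, is chr5:92348840-92349139 on the minus strand.
Ifit1: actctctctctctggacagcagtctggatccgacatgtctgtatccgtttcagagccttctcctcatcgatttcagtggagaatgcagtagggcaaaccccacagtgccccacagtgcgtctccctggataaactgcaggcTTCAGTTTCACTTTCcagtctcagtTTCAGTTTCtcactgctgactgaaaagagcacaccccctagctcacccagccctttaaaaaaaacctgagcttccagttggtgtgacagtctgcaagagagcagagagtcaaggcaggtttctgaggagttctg
Ifit3: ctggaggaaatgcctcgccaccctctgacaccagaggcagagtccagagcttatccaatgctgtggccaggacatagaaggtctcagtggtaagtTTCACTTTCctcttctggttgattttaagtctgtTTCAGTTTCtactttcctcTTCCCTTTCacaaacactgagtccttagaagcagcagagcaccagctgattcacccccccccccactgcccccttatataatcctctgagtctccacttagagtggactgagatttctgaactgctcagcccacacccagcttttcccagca
Trim21: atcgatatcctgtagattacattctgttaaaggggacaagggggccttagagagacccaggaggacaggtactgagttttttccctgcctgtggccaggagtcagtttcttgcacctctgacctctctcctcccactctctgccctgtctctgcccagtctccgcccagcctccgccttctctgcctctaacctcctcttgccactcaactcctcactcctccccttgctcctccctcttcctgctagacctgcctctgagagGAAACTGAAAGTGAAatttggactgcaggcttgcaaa
Trim25: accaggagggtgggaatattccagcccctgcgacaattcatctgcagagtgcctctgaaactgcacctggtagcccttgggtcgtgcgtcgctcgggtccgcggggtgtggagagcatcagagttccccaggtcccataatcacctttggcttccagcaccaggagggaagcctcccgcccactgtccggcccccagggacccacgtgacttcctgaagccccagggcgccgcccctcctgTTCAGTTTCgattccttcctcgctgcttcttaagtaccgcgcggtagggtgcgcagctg
Cxcl10: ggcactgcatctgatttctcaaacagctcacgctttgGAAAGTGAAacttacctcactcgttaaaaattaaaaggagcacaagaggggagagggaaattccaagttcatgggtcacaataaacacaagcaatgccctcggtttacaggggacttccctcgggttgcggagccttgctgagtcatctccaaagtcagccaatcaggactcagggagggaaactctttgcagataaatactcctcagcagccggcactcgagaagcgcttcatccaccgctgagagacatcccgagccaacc
Ifit1 and Ifit3 held 3 matches each, Trim21 held 2, and Trim25 and Cxcl10 held 1 each. Irf9, Lgals3bp and Slfn2 held none, and Rtp4 and Tor3a had no window. The core was found in 4 of the 7 separated lower interferon-stimulated genes that have a window (57.1%), against 20 of the 33 tested members of the list with a window (60.6%). The share was thus alike in members that were separated and in the list as a whole. All promoter windows held it in 2638 of 27025 genes (9.76%) and those of the genes tested in 620 of 7414 (8.36%). Of the genes with a 2-fold gap, 6 of 30 with a window on the lower side (20%) and 2 of 9 on the higher side (22.2%) held it. A match is a description of these letters and not of a bound site.

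Chemokines, which attract leukocytes, were counted together with cytokines. Their list leaves out the chemokine precursor Ppbp, which had a gap of 2.73-fold on the higher side. Of 25 tested, 8 (32.0%) were lower and 1 (4.00%) was higher without Tbk1, against 9.02% and 9.49% of all genes. The median difference was -0.56 (-0.21 between Tbk1-/- and WT, -0.57 between the double mutant and Ikbke-/-). Within the list, a 2-fold gap was found for Cxcl10 and Cxcl2 besides Cxcl14. Cxcl10, a T cell attractant induced by interferon, read 161 in Tbk1-/- and 16.4 in the double mutant, against 440 in WT and 392 in Ikbke-/- cells. Cxcl2, a neutrophil attractant, was under the floor on both arrays without Tbk1 and read 303 in WT and 301 in Ikbke-/- cells. Ccl7, a monocyte attractant, read 733 in Tbk1-/- and 279 in the double mutant, against 2408 in WT and 1377 in Ikbke-/- cells, a gap of 1.88-fold. The remaining lower members, Ccl5, Cxcl1, Il1rn and Ccl2, had gaps of 1.20-fold or less. Ccl5, an Irf3 and NF-kB target, read 538 in Tbk1-/- and 665 in the double mutant, against 841 in WT and 795 in Ikbke-/- cells. The higher member of the list was Cxcl12, the ligand of the receptor Cxcr4. Cxcl12 read 16165 in Tbk1-/- and 24480 in the double mutant, against 2433 in WT and 8880 in Ikbke-/- cells, a gap of 1.82-fold, and a second probe set was separated the same way. Without the WT array, 9 members (36.0%) were lower and 3 higher, against 19.8% and 19.6% of all genes, with a median difference of -0.22. Without the double mutant, 8 (32.0%) were lower and 6 (24.0%) higher, against 23.1% and 23.4% of all genes, with a median of -0.09. Without Tbk1-/- the median was -1.16, and with no filter on low genes it was -0.01. The cytokine Il6 read 521 in Tbk1-/- and 86.9 in the double mutant, against 345 in WT and 94.6 in Ikbke-/- cells, high with Ikbke and low without it on either side.

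Genes of nucleic acid sensing and interferon signalling gave 7 lower (35.0%) and 0 higher of 20 tested, against 9.02% and 9.49% of all genes, and the median difference was -0.20. The widest gap was that of Tlr2, a receptor for bacterial lipoproteins, at 1.68-fold: it read 562 in Tbk1-/- and 419 in the double mutant, against 1075 in WT and 944 in Ikbke-/- cells. Socs3, which inhibits cytokine receptors, Traf6, an adaptor of Toll-like receptors, and Mavs, the adaptor of the RNA sensors, followed with 1.40-fold, 1.33-fold and 1.17-fold. Jak1, Ifnar1 and Myd88 had gaps of 1.09-fold or less. No member reached a gap of 2-fold. MHC class I presentation gave 1 lower and 1 higher of 15 tested, close to the share of all genes.

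The adaptors and autophagy partners of Tbk1 had 6 of 18 (33.3%) higher and 3 (16.7%) lower, Tbk1 itself among the lower ones, against 9.49% and 9.02% of all genes, and a median difference of 0.05. Gabarapl1, a protein of the autophagosome membrane, read 2760.0 in Tbk1-/- and 2729 in the double mutant, against 1837 in WT and 1293 in Ikbke-/- cells, a gap of 1.49-fold. Atg7, an enzyme of autophagosome formation, read 429 in Tbk1-/- and 379 in the double mutant, against 277 in WT and 214 in Ikbke-/- cells. Nbr1, an autophagy receptor, had a gap of 1.21-fold, and Map1lc3b, Ulk1 and Atg12 had gaps of 1.07-fold or less. On the lower side Azi2, an adaptor that binds Tbk1, read 650 in Tbk1-/- and 822 in the double mutant, against 1011 in WT and 1043 in Ikbke-/- cells. Tbk1 itself and Atg5 were the other 2. Sqstm1, a receptor that Tbk1 phosphorylates, was not separated.

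Cell cycle genes differed more within the sides than between them. Of 38 tested, 5 (13.2%) were higher and 3 (7.89%) lower without Tbk1, against 9.49% and 9.02% of all genes. The higher ones were Mcm2, Mcm3, Mcm4 and Mcm7, subunits of the replicative helicase, and Cdkn2a, a locus of cell cycle inhibitors. Their gaps were 1.30-fold or less. The median difference of 0.66 joined -0.23 between Tbk1-/- and WT with 1.55 between the double mutant and Ikbke-/- cells. Ccnd1, the cyclin that drives entry into the cycle, was lower with a gap of 2.10-fold: it read 2202 in Tbk1-/- and 2665 in the double mutant, against 5594 in WT and 6695 in Ikbke-/- cells. Another Ccnd1 probe set read 1203 in the double mutant and 1198 in WT and was not separated, while the third was. The inhibitors Cdkn2b and Cdkn1a were lower with gaps of 1.42-fold and 1.11-fold.

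The remaining lists were counted alike. NF-kB target genes gave 3 higher and 3 lower of 29 (10.3% each). Contractile genes gave 1 higher (3.33%) and 6 lower (20%) of 30, against 9.49% and 9.02% of all genes, with gaps under 1.40-fold. Oxidative stress genes gave 3 higher and 4 lower of 31, unfolded protein genes 2 and 2 of 26, glycolysis genes 2 and 1 of 24, p53 targets 0 and 2 of 22, imprinted genes 1 and 2 of 18, Hox genes 1 and 0 of 18, and fat cell genes 4 (21.1%) and 1 (5.26%) of 19. The 4 higher fat cell genes were Retn, Scd2, Dgat1 and Pnpla2, with gaps of 1.12-fold or less. Immediate early genes gave 1 higher and 4 lower of 33. Cholesterol synthesis gave none on either side of 21, with values within the sides far apart. Markers of other cells gave 0 separated of 21 for macrophages, 1 lower of 6 for endothelium (Flt1, a Vegf receptor), 0 of 7 for epithelium, 0 of 5 for muscle, 1 higher of 11 for neural cells and 0 of 3 for blood and liver.

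Genes were also grouped by their place in the genome, starting from the altered gene. Among the 40 measured genes nearest to Tbk1, 4 (10%) were higher and 2 (5.00%) lower without Tbk1, close to the share of all genes. Chromosome 19, which does not carry Tbk1, had the highest share on the higher side. This count by chromosome was chosen after the values were seen. Of its 340 genes tested, 82 (24.1%) were higher and 11 (3.24%) lower, against 9.49% and 9.02% of all genes. Its median difference was 0.14 between Tbk1-/- and WT and 0.16 between the double mutant and Ikbke-/- cells, while the medians of all genes were -0.01 and 0.12. Among its 244 genes above the floor on all 8 arrays, 32.0% were higher and the medians were 0.23 and 0.14. Under that filter the shares of the other chromosomes were 8.0% to 22.6%. With the filter on all 4 mock arrays, 31.3% of its 252 genes were higher, against 12.3% of all genes. Among all its genes tested, chromosome 6 had 16% higher with medians of 0.00 and 0.40. Chromosome 11 had 12.3% with 0.00 and 0.13, and chromosome 15 had 11.5% with -0.01 and 0.33. On chromosomes 6 and 15 the shift was thus found in the Ikbke-/- pair alone. That pattern was not particular to them: the medians were -0.10 and 0.27 on the X chromosome and -0.06 and 0.24 on chromosome 10. Chromosome 4 had the highest share on the lower side, 16.2%. On the unscaled signals the share of higher genes on chromosome 19 was 4.08%, against 1.96% of all genes, and scaled to the median it was 18.8%, against 8.08%. Without the Tbk1-/- array it was 37.4%, against 35% of all genes, and without any other single array it was 30% to 50%, against 16.5% to 23.4%. Ifit1 and Ifit3 lie on chromosome 19 and were on the lower side. Of the 10 genes with a 2-fold gap on the higher side, Col4a6, Vegfd and Mtm1 are X-linked. Srpx and Srpx2, with a 2-fold gap on the lower side, are X-linked too. The X chromosome holds 282 of the 9169 genes tested. Of these 282, 9.93% were higher and 9.57% lower, close to the 9.49% and 9.02% of all genes.

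**Figure D4:**
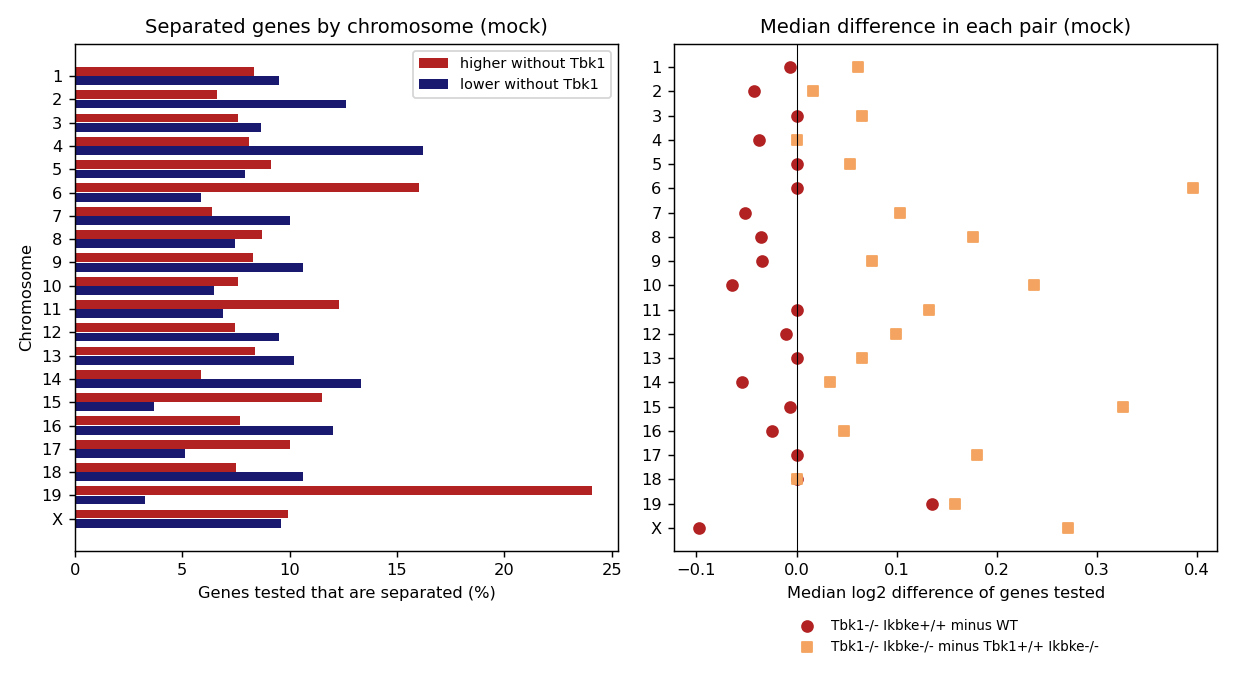
The left panel gives, for each chromosome, the percentage of tested genes separated with higher (red) or lower (blue) signal without Tbk1 on the mock arrays, and the right panel the median log2 difference within each Ikbke genotype. Chromosome 19 reaches 24.1% on the higher side with medians above 0 in both pairs. Chromosomes 6 and 15 have the highest medians in the Ikbke-/- pair.

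The B-DNA arrays of the same genotypes, which share no array with the mock comparison, showed which differences appeared a second time. The labels do not say whether they came from the same cultures as the mock arrays. On them, 19.3% of the 9169 genes were separated with higher and 10.1% with lower signal without Tbk1. Of the 10 genes with a 2-fold gap on the higher side, 6 (60.0%) were separated the same way after B-DNA, and of the 43 on the lower side, 32 (74.4%) were. None of the 53 was separated in the opposite direction. The median difference of the 43 was -1.90 on the mock arrays and -1.88 on the B-DNA arrays, and that of the 10 was 2.07 and 1.55. Of all separated genes, 458 of 870 higher (52.6%) and 259 of 827 lower (31.3%) were separated the same way after B-DNA, and 55 and 134 the opposite way.

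Cxcl14 after B-DNA read 63.6 in Tbk1-/- and 87.9 in the double mutant, against 581 in WT and 930.1 in Ikbke-/- cells, a level difference of -2.59, against -2.83 on the mock arrays. Col18a1 read 405 in Tbk1-/- and 585 in the double mutant, against 1680 in WT and 1730 in Ikbke-/- cells, with a difference of -1.81, against -2.19. Sfrp1 read 1170 in Tbk1-/- and 2018 in the double mutant, against 477 in WT and 476 in Ikbke-/- cells. The difference of Sfrp1 was 1.69 after B-DNA, against 2.65 on the mock arrays. Rtp4, Ifit1 and Cxcl10 differed much more after B-DNA. Ifit1 then read 104 in Tbk1-/- and 138 in the double mutant, against 23925 in WT and 21838 in Ikbke-/- cells, and Rtp4 read 14.4 and 130.3, against 5097 and 8860. Of the 40 interferon-stimulated genes, 39 were lower without Tbk1 after B-DNA, Irgm1 and Isg20 included, against 9 on the mock arrays. Genes that were not separated after B-DNA were Plac8, Cklf, Celf2 and Timmdc1 on the higher side and Srpx2, Cdr2l, Id2, Rps4l, Msx1, Cxcl2, Olfm1, Dhrs3, Tmem267, Kcnn4 and Homer2 on the lower side. Plac8 read 592 in WT and 517 in Ikbke-/- cells after B-DNA, above the 361 of Tbk1-/- cells.

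**Figure D5:**
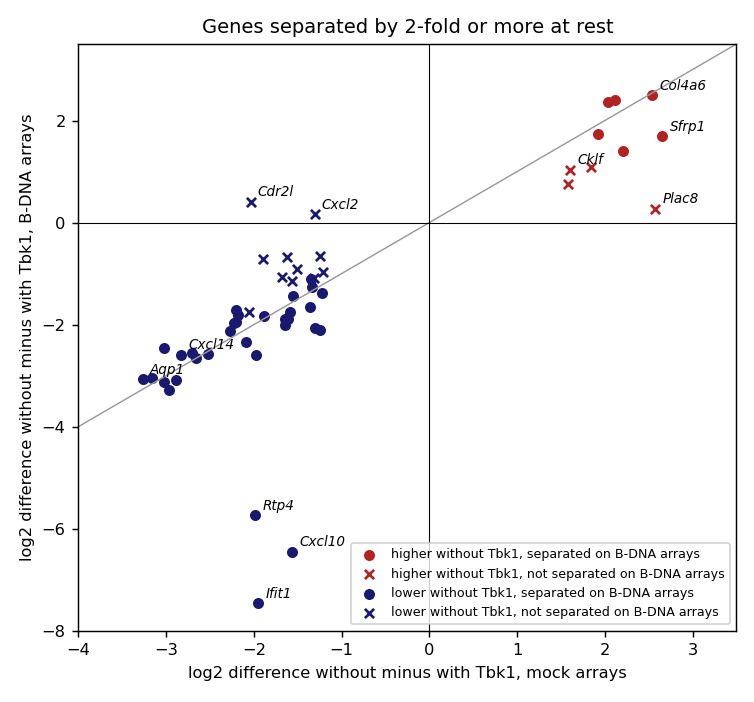
The log2 difference without minus with Tbk1 of the 53 genes with a 2-fold gap is plotted for mock arrays (horizontal axis) and B-DNA arrays (vertical axis), with the line of equal values, circles for genes separated on both and crosses for those not separated after B-DNA. Most points follow the line, Rtp4, Cxcl10 and Ifit1 lie far below it, and Cdr2l and Cxcl2 lie above 0 after B-DNA.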

How the data were processed

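Each probe set carries a MAS5 signal, deposited as linear intensity. The submitters' processing notes name MAS5, and the design text credits Microarray Suite 5.0. No source used here gives a scaling target, detection calls or pooling. Probe set names matched the annotation of a different array from that in the design text.

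Each array was multiplied so that the 2% trimmed mean of its non-control probe sets was 500 (22626 of 22690 probe sets). Probe sets with 1 symbol (20380, of which 20351 matched the GRCm38.p6 RefSeq table) gave 12393 genes, each represented by its brightest probe set, and 691 probe sets with several symbols and 1555 with none were left unnamed. Values under the floor of 122.2 were set to it before log2. The 9169 genes at the floor or above on a mock array were fitted with limma 3.58.1 (R 4.3.3) with terms for Tbk1 and Ikbke, Benjamini-Hochberg threshold 0.05, after the fit was tested on simulated data. The number of arrays limits precision, and p-values reflect no more than the spread among 4 arrays. With 1 array per genotype, that spread is how far the Tbk1 differences in the Ikbke genotypes disagree, moderated across genes. It is not a spread of replicates.

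Named genes are the 12 with the widest gap in each direction, up to 4 separated members per list and direction, and a set of interferon genes. Other genes with a 2-fold gap, marker genes and members given for contrast were added after their values were seen. The members and the 30 gene lists were chosen with earlier results of these data known. Tried as alternatives were no scaling, other scalings, floors and filters, probe set means, other models and leaving out each array.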

Additional observations from a re-analysis of the deposited data

Results flagged for a closer look

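In 3 gene groups of 15 or more tested genes, the median difference without minus with Tbk1 ran in opposite directions in the Ikbke genotypes. The limit was a median of 0.2 or more away from 0 in each. Other groups also ran in opposite directions without reaching these limits. NF-kB target genes, for example, had 0.09 between Tbk1-/- and WT and -0.53 between the double mutant and Ikbke-/- cells. The difference between the pairs was not tested, since each rests on 1 array a genotype.

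For the 33 immediate early genes the median of the Ikbke-/- pair (double mutant minus Ikbke-/-) was -1.65 and that of the Ikbke+/+ pair (Tbk1-/- minus WT) 0.68, a difference of -2.33 on the log2 scale. Fos read 4556 in Tbk1-/- and 608 in the double mutant, against 1406 in WT and 3563 in Ikbke-/- cells. Ccn2, a matrix-associated growth regulator, read 14470 in Tbk1-/- and 998 in the double mutant, against 12050 in WT and 11690 in Ikbke-/- cells.

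For the 38 cell cycle genes the medians were 1.55 in the Ikbke-/- pair and -0.23 in the Ikbke+/+ pair, a difference of 1.78. Mki67, a marker of cycling cells, read 408 in Tbk1-/- and 1649 in the double mutant, against 680.3 in WT and 339 in Ikbke-/- cells.

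For the 21 cholesterol genes the medians were -0.95 in the Ikbke-/- pair and 0.42 in the Ikbke+/+ pair, a difference of -1.37. Hmgcs1, an early enzyme of the pathway, read 9264 in Tbk1-/- and 3253 in the double mutant, against 4422 in WT and 12080 in Ikbke-/- cells. The double mutant array, which had the lowest deposited signal, lay at one end of the 4 values for Fos, Ccn2, Mki67 and Hmgcs1, and the part of that array's quality was not tested.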

How the results depend on the processing

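Of the 53 genes with a 2-fold gap, 52 were separated on unscaled signals, without Mtm1, and 46 with the mean of all probe sets, without Cklf, Rtp4, Id2, Msx1, Olfm1, Kcnn4 and Socs2. The rule that chose them fixes their order when an array is left out, the model is changed or the filter is dropped, so those alternatives say nothing about them.

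Counts moved more. On unscaled signals there were 183 higher and 1478 lower separated genes and 6 higher genes with a 2-fold gap. Lower interferon-stimulated genes then numbered 16 (39.0%, against 15.8% of all genes). With the floor at the 20th percentile there were 1629 higher separated genes, and 47 higher and 74 lower genes with a 2-fold gap. With the filter on all 4 arrays 14 lower genes had a 2-fold gap. Leaving out an array relaxes the rule, since fewer values must be in order. Whichever mock array was left out, separated genes then numbered 1517 to 3213 higher and 1732 to 2292 lower, and 2-fold gaps 39 to 338 higher and 131 to 325 lower. Interferon-stimulated genes numbered 12 to 14 lower (30.0% to 35.0%) and 2 to 11 higher (5.0% to 27.5%). The shares of all genes were 18.9% to 25.0% lower and 16.5% to 35.0% higher. The highest counts over all genes came without the Tbk1-/- array, which leaves the double mutant as the side without Tbk1. The median of the interferon-stimulated genes stayed below 0, between -0.49 and -0.08. The -0.49 was that of unscaled signals, where the median of all genes was -0.23.

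Limma called genes in 2 alternatives. With 16 added in place of the floor it called 6 lower (Crabp2, Gdf10, Kcnn4, Omd, Rtp4, Srpx2) and 0 higher, with a lowest adjusted p of 0.0483 and 343 unadjusted p under 0.05. With the filter on all 4 arrays, which tests 6985 genes, it called 1 higher (Sfrp1) and 7 lower (Acan, Aspn, Col18a1, Cpxm2, Crip2, Ecrg4, Sod3), with a lowest adjusted p of 0.0128 and 222 unadjusted. Elsewhere it called 0, with 159 to 1739 unadjusted p under 0.05. The cause was not tested. The share of chromosome 19 on the higher side was 4.08% unscaled, against 1.96% of all genes, and 37.4% without the Tbk1-/- array, against 35%.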
